A study of Homo sapiens with 18 samples.

Results

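SJSA-1 is a human osteosarcoma cell line that carries extra copies of the MDM2 and CDK4 genes. The comparison described here sets 3 libraries of cells kept for 30 h in 10 µM PD0332991, the CDK4/6 inhibitor also called Palbociclib (group PD30), against 3 libraries of cells given the solvent (group DMSO). These are 6 of the 18 libraries of the series, and the members of the comparison are the 15125 genes, of 23368 listed, that had enough counts in these libraries to be tested. Both groups grew in medium with serum, and neither received Nutlin, an antagonist of MDM2 that the series combines with PD0332991. Further groups appear below for reference. In PD24, 10 µM PD0332991 was present for the first 24 h of the 30 h and was then taken off for 6 h. Nutlin cells had, by the sample labels, 20 µM Nutlin for the last 6 h (the study's own scheme also writes a lower dose), and N+PD30 cells had this on top of 30 h of PD0332991. The cells are 1 line in culture, so the replicates are repeats within that line, which the study calls biological triplicates. The sample labels do not say whether they came from separate cultures. The p-values therefore measure the spread between these libraries.

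CDK4 and CDK6, bound to D-type cyclins, phosphorylate the retinoblastoma protein and its relatives. While these pocket proteins lack phosphate they hold E2F factors and the DREAM complex in a repressive state, so genes of DNA replication and mitosis stay off and cells remain in G1. An inhibitor of the kinases keeps this brake on, and cells so arrested can go on growing and turning over lipid, protein and membrane.

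The 6 libraries held 28.8 M to 36.0 M counts on genes (M stands for 1e6), with 4.03% to 4.74% of the counts in the 10 most abundant genes of a library. The first principal component took 84.5% of the variance and parted the groups, and the second, with 6.7%, spread the libraries within both. Levels are counts per M counts (CPM) after TMM scaling, and are not corrected for gene length, so they are compared between libraries and not between genes. The inhibitor acts on the CDK4 and CDK6 proteins, and both mRNAs were abundant. CDK4 stood at 2557, 3095 and 3154 CPM in DMSO and at 2227, 2492 and 2397 in PD30. Its log2 fold change was -0.31 (SE 0.0945, adjusted p = 0.0231), a call that was lost when some single libraries were left out, with 0.0900 as the highest adjusted p. CDK6 stood at 242, 248 and 243 CPM in DMSO and at 288, 283 and 327 in PD30 (0.29, adjusted p = 0.0127). Of 24 markers of the osteoblast lineage, 16 were tested. RUNX2 lay between 27.6 and 34.1 CPM and COL1A1 between 1119 and 2309, while BGLAP, IBSP, SP7 and DMP1 of the same list had at most 0.0834 CPM. The hematopoietic marker PTPRC and the endothelial marker CDH5 had at most 0.139 CPM, and CD3E had no count. Of the summed markers, the hematopoietic ones gave 26.9 to 37 CPM in DMSO and 32.5 to 46.6 in PD30, the largest member being CD68, a glycoprotein of lysosomes (13.8 to 19.8 and 26.5 to 36.1). Of the 5 tested, CD68 alone was higher in PD30 at an adjusted p under 0.05. CORO1A was lower, at 2.93, 2.42 and 1.45 CPM in DMSO and 0.239, 0.279 and 0.168 in PD30 (-3.29), and CD14 was at -0.77 (adjusted p = 0.148). The summed endothelial markers gave 6.10 to 10.4 and 10.7 to 13.2, where VWF went from 1.28, 1.83 and 2.03 CPM to 7.28, 5.81 and 6.06. The part of such cells in the results was not tested. In bulk RNA, fewer cells that express a gene and less RNA per cell cannot be told apart.

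After 30 h of PD0332991, 871 genes were called higher and 1434 lower, out of the 15125 tested. A gene was called when its adjusted p was under 0.05 (the quasi-likelihood test of edgeR, with p-values adjusted after Benjamini and Hochberg over these genes) and its log2 fold change was over 1 in size. The called genes are 15.2% of those tested, with 5.76% higher and 9.48% lower, and these shares are the background against which the gene groups below are read. The adjusted p alone passed 48.3% of the genes, 3468 upwards (22.9%) and 3839 downwards (25.4%). Below, rose and fell are used of genes past the adjusted p, and called of those past both limits. In 2294 of the 2305 called genes the 3 values of one group lay entirely above those of the other, where 57.4% of the genes tested did so, 27.7% of them with PD30 above and 29.7% with PD30 below. The median log2 fold change over the genes tested was 0.00.

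Falls reached further than rises. A fall by more than 3 on the log2 scale was seen in 296 called genes and a rise by more than 3 in 35, and by more than 5 in 89 and 2. One gene that rose, PKD2L1, had no count in DMSO and at most 0.982 CPM in PD30. The rises sat more often among scarce RNAs. When the genes were parted into 4 bins of equal size by mean level, the lowest bin, 0.213 to 3.88 CPM, had a median SE of 0.28, and 423 of its genes were called higher and 437 lower. In the bin from 21.7 to 64.0 CPM the median SE was 0.106, and 100 were called higher and 315 lower. Outside the lists of S phase, G2/M phase, histone and cholesterol genes, 846 genes were higher and 1190 were lower, 5.70% and 8.02% of 14832, so most of the response lay beyond these lists.

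**Figure D1:**
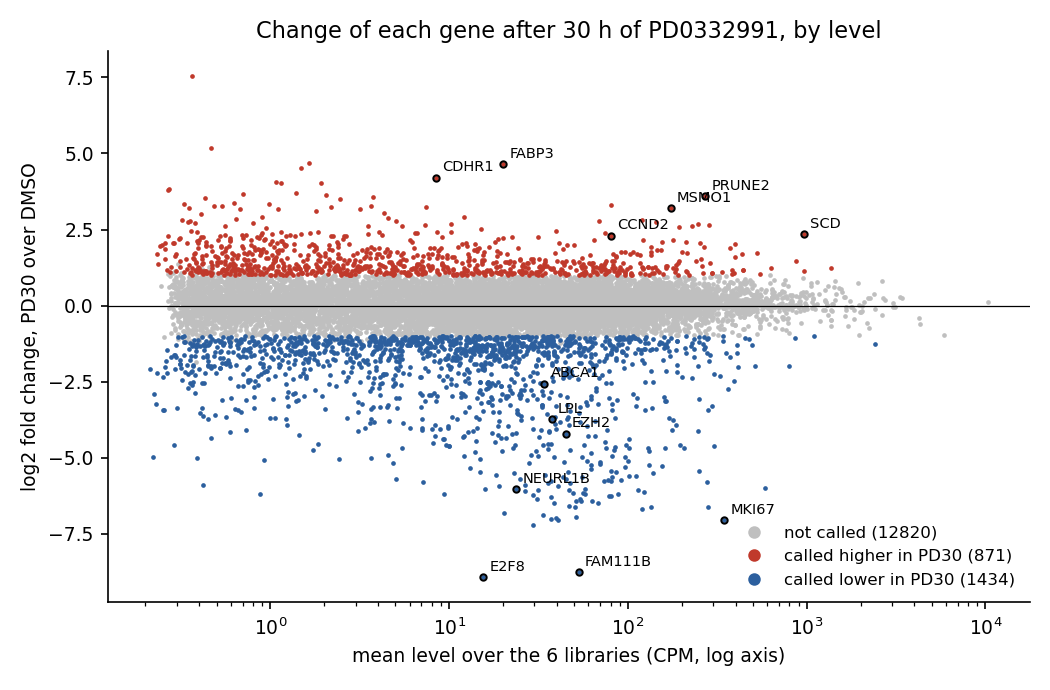
Log2 fold change of PD30 over DMSO (vertical axis) against the mean level over the 6 libraries in CPM (horizontal axis, log scale) for the 15125 genes tested. Red points are the 871 genes called higher, blue points the 1434 called lower and grey points the rest. The falls of the called genes extend to -8.93 (E2F8), while the highest red point at the left is PKD2L1, whose DMSO libraries had no count.

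The fall of the proliferation genes was almost complete. Of 98 genes of S phase and replication, 94 were called lower and 0 higher (median log2 fold change -3.68). Of 146 genes of G2/M phase and mitosis, 144 were called lower and 0 higher (median -4.58). MKI67, which encodes the proliferation marker Ki-67, stood at 645, 664 and 754 CPM in DMSO and at 6.56, 4.67 and 4.38 in PD30. FAM111B, a protease gene of S phase, went from 101, 101 and 115 CPM to 0.273, 0.279 and 0.168. Both were nearly silent in every PD30 library. Within the CDK4/6 pathway list, 13 of 31 genes were called lower and 1 was called higher. Those lower were the E2F targets among them, such as E2F1 (-4.74), CCNE2 (-6.99) and CDK2 (-2.98), and also RB1 itself, at 129, 145 and 145 CPM in DMSO and 62.8, 59.3 and 62.8 in PD30 (-1.18, adjusted p = 3.01e-06). The one called higher was CCND2, cyclin D2, a partner of CDK4 and CDK6, at 29.8, 26.6 and 24.8 CPM in DMSO and 129, 116 and 154 in PD30 (2.30, SE 0.122, adjusted p = 5.02e-07). CCND1 rose by less (0.51, adjusted p = 0.000593) and CCND3 fell (-0.67, adjusted p = 0.00425), so the cyclin D genes did not move together. The replication-dependent histones did not share the common fall of the S phase list, but most of them were scarce in these libraries. Of 59 listed 25 were tested, 2 were called higher and 6 lower, and their median of 0.14 turned negative in several alternatives. Messages of these genes mostly lack the usual poly(A) tail. Mean levels in DMSO were 0.592 to 2.14 CPM for those called lower and 0.973 and 1.08 CPM for those called higher.

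**Figure D2:**
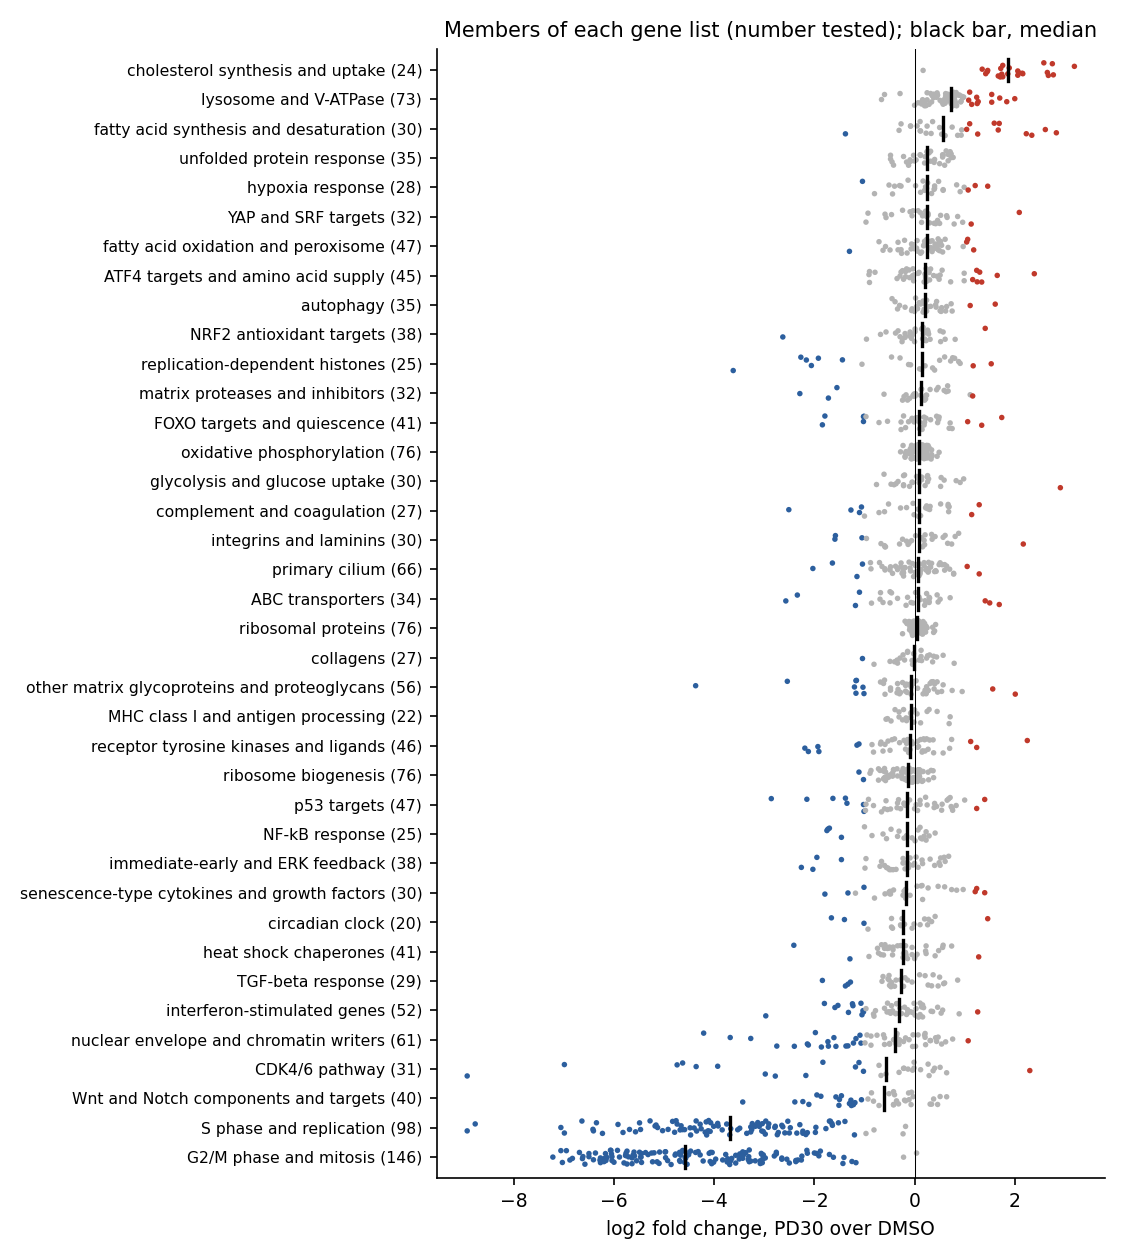
Log2 fold change of PD30 over DMSO for each tested member of the 38 gene lists other than cell type markers (points), ordered by the list's median (black bar), with the number tested in brackets. Red points were called higher, blue ones lower. The S phase and G2/M lists lie apart at the left with medians of -3.68 and -4.58, and the cholesterol list (1.87), the lysosome list (0.72) and the fatty acid synthesis list (0.57) have the highest medians.

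Outside the proliferation, histone and cholesterol lists, the 12 largest falls again included genes with roles in division. ERCC6L, a DNA translocase of anaphase bridges (chromosome X, 71424507 to 71458877 on GRCh37), went from 49.1, 51.5 and 55.9 CPM in DMSO to 0.957, 0.615 and 0.757 in PD30, a log2 fold change of -6.08 (SE 0.158, adjusted p = 5.27e-09). WDR62, a centrosome protein, fell by 4.71, SAPCD2, which acts in spindle orientation, by 5.35. WDR76, C11orf82 and TCF19 fell by 4.95, 4.94 and 5.84. Others of the 12 are known from elsewhere. NEURL1B, an E3 ubiquitin ligase for Notch ligands (chromosome 5, 172068266 to 172118543), went from 51.1, 45.4 and 44.1 CPM to 0.683, 0.838 and 0.617 (-6.03, SE 0.152, adjusted p = 5.02e-09). TP73, a relative of p53 and a known E2F1 target, went from 16.4, 13.7 and 12.1 CPM to 0.171, 0.363 and 0.196 (-5.81, adjusted p = 1.27e-07). RHBDL3, a rhomboid-like membrane protein, fell by 4.90, FAM54A by 4.67 and LOC100128191 by 5.69. GNB3, a G protein subunit, fell by 5.01, but it overlaps CDCA3 on the opposite strand, and CDCA3, a mitotic gene, fell by 5.76. Whether the library kit keeps the strand is not stated, and 107 of the 183 genes named here overlap some gene on the opposite strand, so for such genes reads of the neighbour cannot be told apart.

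Of the 12 largest rises 11 are described, and FABP3 was the largest of them. FABP3, a carrier of fatty acids in the cytoplasm (chromosome 1, 31838100 to 31849697), stood at 1.40, 1.48 and 1.74 CPM in DMSO and at 36.4, 39.9 and 39.1 in PD30, a log2 fold change of 4.64 (SE 0.132, adjusted p = 7.47e-09). LIPG, endothelial lipase (chromosome 18, 47087069 to 47125555), rose from 10.7, 16.0 and 17.7 CPM to 130, 136 and 170 (3.30, SE 0.187, adjusted p = 7.85e-07). MSMO1, an enzyme of sterol synthesis, rose by 3.19. Among the others, PRUNE2 was the most abundant. It lies on chromosome 9 (79226292 to 79521030, with PCA3 and GCNT1 on the opposite strand) and rose from 43.0, 42.9 and 38 CPM to 519, 455 and 524 (3.60, SE 0.0961, adjusted p = 5.27e-09). CDHR1, a cadherin known from photoreceptors, rose from 0.701, 1.02 and 0.903 CPM to 14.1, 16.6 and 17.6 (4.20, adjusted p = 1.12e-07). ALDOC, an aldolase of brain, rose from 2.68, 2.71 and 3.16 CPM to 21.4, 23.0 and 19.8 (2.91, SE 0.134). SLCO4C1, an organic anion transporter, CPNE7, B3GALT2, LOC284344 and LOC283050 rose by 3.04 to 3.59 and reached 15.9 CPM at most.

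**Figure D3:**
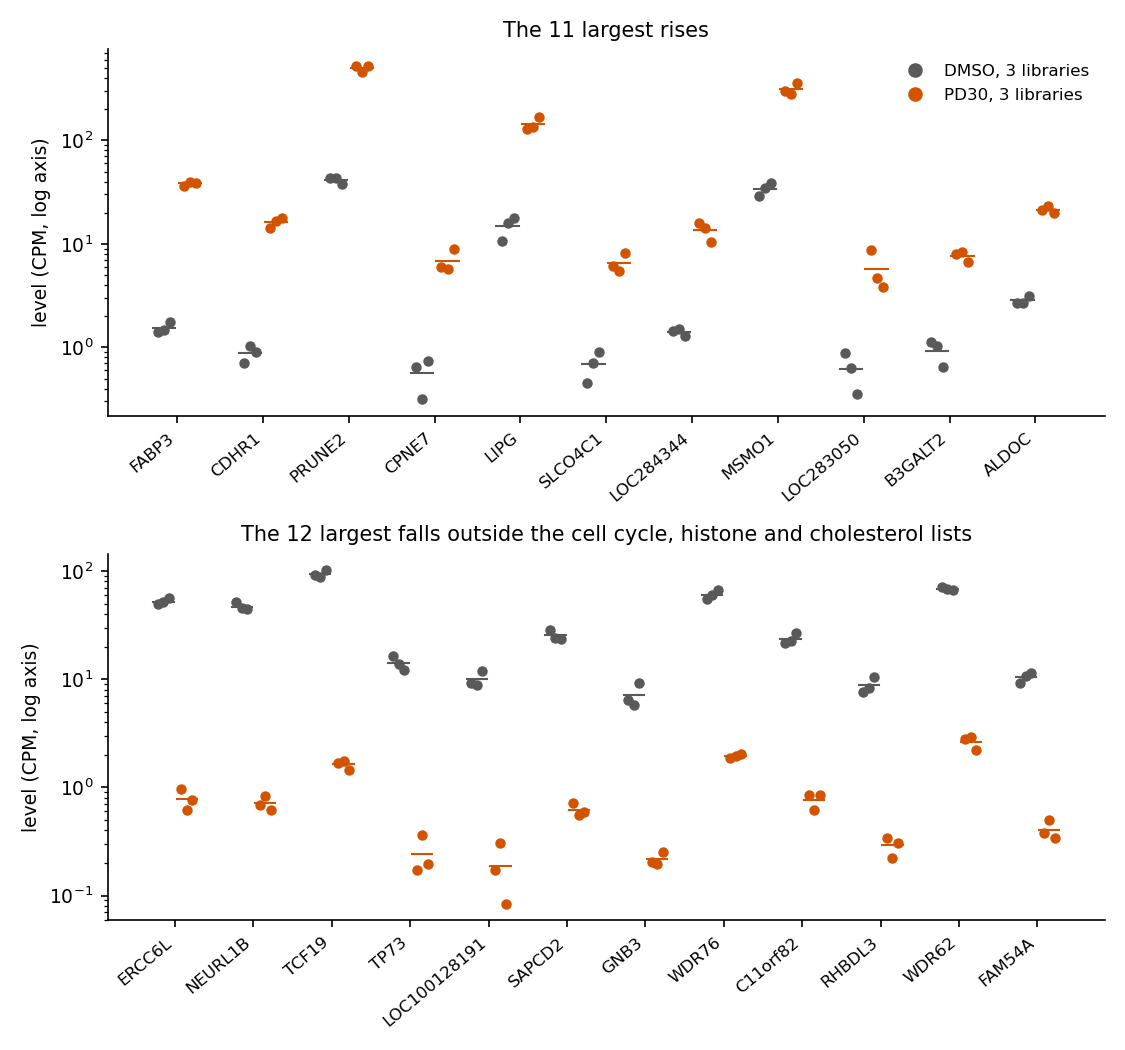
Level in CPM (log axis) of the 11 largest rises (top) and of the 12 largest falls outside the cell cycle, histone and cholesterol lists (bottom), with 1 point per library and a bar at the mean of the 3 DMSO (grey) and 3 PD30 (orange) libraries. The genes were chosen for groups that do not overlap, and PRUNE2 reaches 455 to 524 CPM in PD30.

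The next question was which other processes moved. Genes of fatty acid synthesis rose beside those of cholesterol, and both are served by SREBP factors, which are released from the membrane when sterol or lipid supply is short. Of 24 genes of cholesterol synthesis and uptake, 23 were called higher and 0 lower. Of 30 genes of fatty acid synthesis and desaturation, 10 were called higher and 1 lower, against 5.76% and 9.48% of the genes tested, and the median was 0.57. ACSS2, which makes acetyl-CoA from acetate, rose from 27.3, 30.9 and 30.3 CPM to 212, 205 and 210 (2.83, SE 0.0826, adjusted p = 8.83e-09). FADS2, a desaturase, rose from 63.3, 68.7 and 61.1 CPM to 382, 439 and 360 (2.61, SE 0.0979, adjusted p = 4.05e-08), and it shares sequence on the same strand with FEN1, which fell by 3.04. The groups of ACSS2 and FADS2 were apart, which the rule that named them required. SCD, the main desaturase of saturated fatty acids, rose from 289, 332 and 333 CPM to 1619, 1495 and 1717 (2.34), PNPLA3 by 2.23, ELOVL6 by 1.69 and FASN, the fatty acid synthase, by 1.59. Of the genes of the factors themselves, SREBF1 was at 0.05 (adjusted p = 0.791), and SREBF2, in the cholesterol list, rose by 1.45 (adjusted p = 7.91e-07). The member called lower was ACACB, the mitochondrial form of acetyl-CoA carboxylase (-1.38, adjusted p = 3.52e-05), which overlaps UNG (-1.68), a repair gene, on the same strand. Genes of the opposite pathway rose more often than they fell, but mostly by small amounts. In the list of fatty acid oxidation and peroxisomes 21 of 47 genes rose and 6 fell, where 22.9% and 25.4% of the genes tested did, with a median of 0.24. In this list 3 were called higher and 1 lower, against 5.76% and 9.48% of the genes tested. Among them were PPARGC1A (1.18) and PPARA (1.04), regulators of oxidation, and HADH (-1.30), an enzyme of it.

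Some genes of lipid traffic, brought together after their values were seen, fell. ABCA1, which hands cholesterol to lipoproteins, fell from 59.3, 58.1 and 57.6 CPM in DMSO to 12.2, 9.28 and 8.08 in PD30 (-2.57, SE 0.145, adjusted p = 7.59e-07). ABCG1, with a like role, fell from 13.3, 12.4 and 8.55 CPM to 2.43, 2.15 and 2.22 (-2.34, adjusted p = 1.13e-05). LPL, lipoprotein lipase, fell from 69.5, 71.5 and 68.3 CPM to 6.29, 4.92 and 4.6 (-3.73, adjusted p = 2.34e-08). In all 3 genes the groups were apart, which the rule that named them required. ABCA1 and ABCG1 are known targets of the oxysterol receptor LXR. The list of 34 ABC transporters as a whole had 3 members called higher and 4 lower, with ABCC3, an efflux pump, the best expressed of those higher (1.41) and ABCB1, the multidrug transporter, among those lower (-1.10). After quantile normalization 2 of these 4 were called.

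The lysosome was the other compartment whose genes rose together. Of 73 genes of lysosomal enzymes, membrane proteins and the proton pump V-ATPase, 59 rose at an adjusted p under 0.05 (80.8% of them, where 22.9% of the genes tested did) and 2 fell. Most changes were small. The median was 0.72, and 11 were called higher and 0 lower. SLC17A5, which exports sialic acid from lysosomes (chromosome 6, 74303102 to 74363715), rose from 15.7, 19.9 and 18.9 CPM to 72.4, 70.2 and 75.4 (2.0, SE 0.107, adjusted p = 5.10e-07). NEU1, the lysosomal sialidase (chromosome 6, 31825436 to 31830682), rose from 57.9, 67.8 and 65.3 CPM to 235, 230 and 219 (1.84, SE 0.0851, adjusted p = 1.78e-07). ASAH1, acid ceramidase, rose by 1.70, and NPC1, the cholesterol exporter of lysosomes, by 1.54. LIPA, acid lipase, rose by 1.14 and CTSD, cathepsin D, by 0.92, while the membrane proteins LAMP1 and LAMP2 rose by 0.51 and 0.55. The 2 that fell were GUSB (-0.66) and GLA (-0.60), both lysosomal glycosidases. Of the factors known to drive lysosomal genes, MITF (0.40, adjusted p = 0.00299) and TFE3 (0.29, adjusted p = 0.0161) rose slightly, and TFEB, at 1.98 CPM or less, was at 0.00 (adjusted p = 0.996). Of 35 autophagy genes, 13 rose and 2 fell, and 2 were called, WIPI1 (1.61) and GABARAPL1 (1.11), both of the autophagosome membrane.

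**Figure D4:**
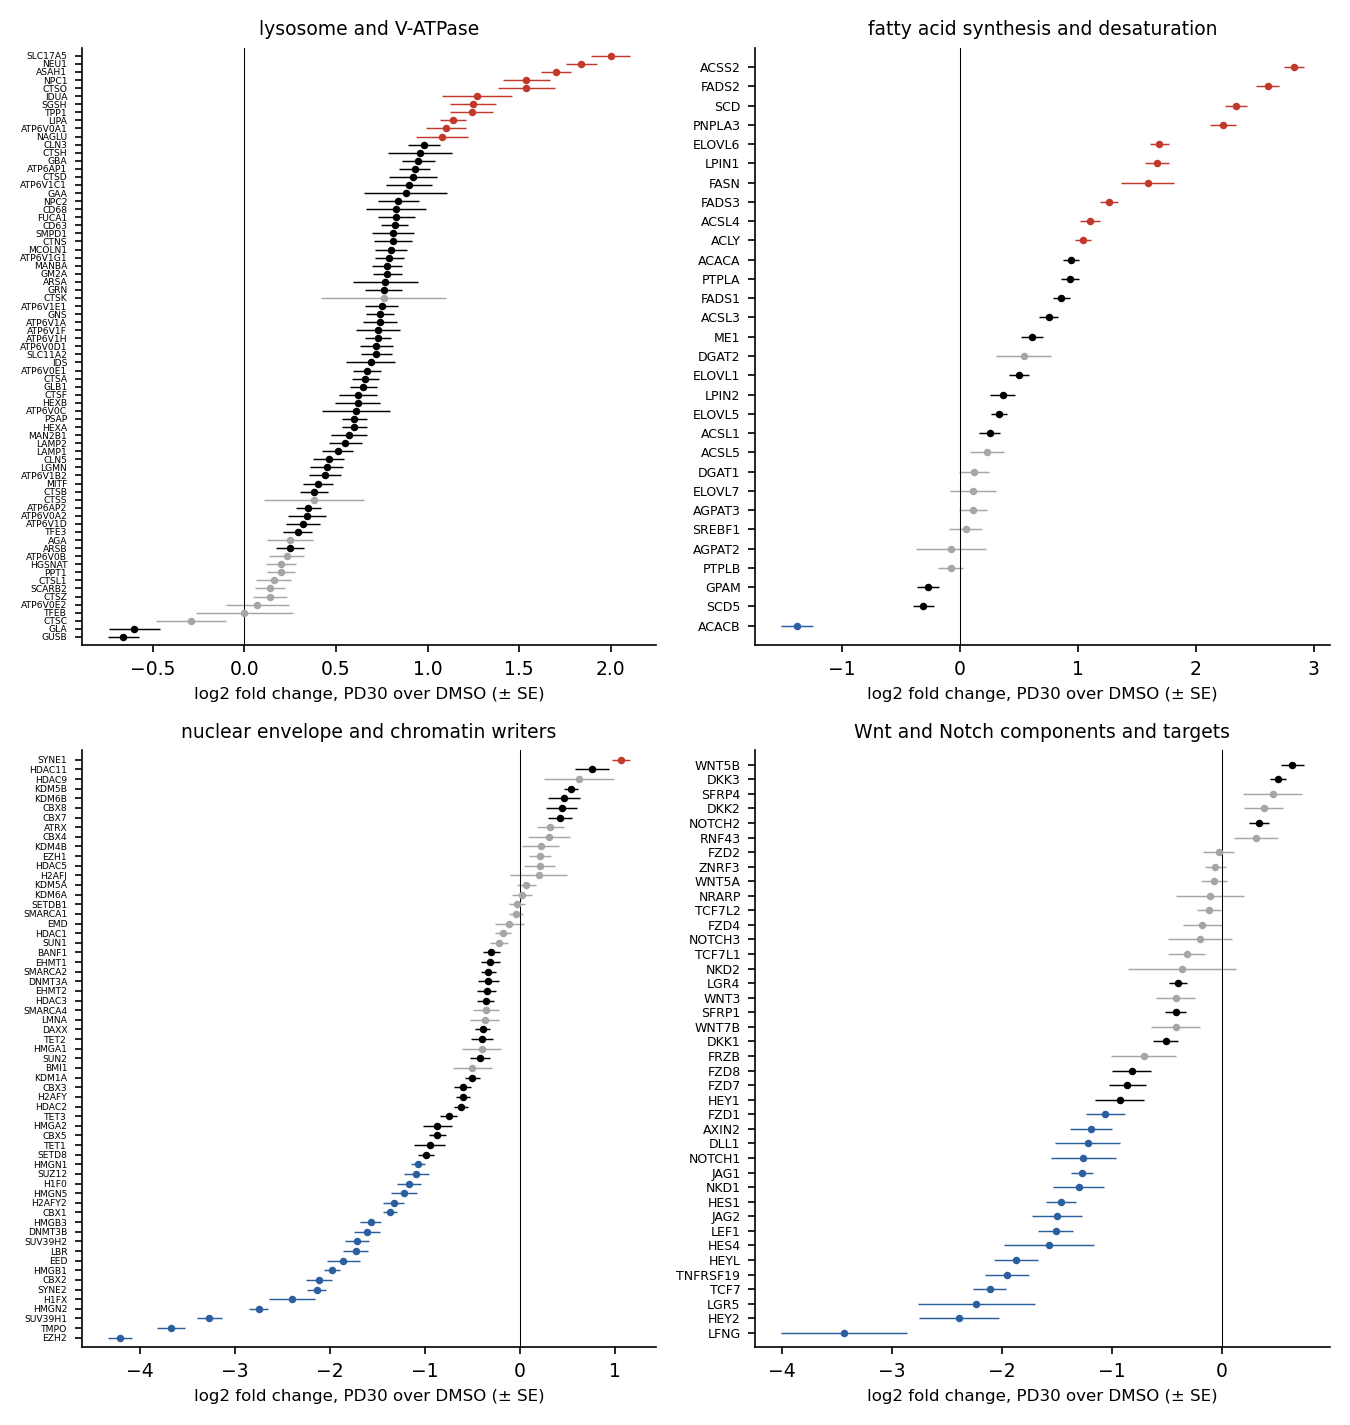
Log2 fold change of PD30 over DMSO with its standard error for each tested gene of 4 lists. Red and blue points were called higher and lower, black points passed the adjusted p of 0.05 without the fold, and grey points passed neither. The lysosome panel lies to the right of 0 except for CTSC, GLA and GUSB, and the panels of chromatin writers and of Wnt and Notch genes lie mostly to the left.

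Sequence before the start of such genes can be set beside the changes. The 250 bases before the start of transcription (RefSeq, GRCh38.p14) were found for 11568 of the 15125 genes and searched on both strands for 5 short motifs, in any overlap with one another. Among all these promoters 8.84% held TTTGAA, the CHR element known from G2/M genes, against 14.9% of those of genes called lower and 9.64% of those called higher. An E2F site, TTTCGCGC or TTTGGCGC, was in 1.63% of all, 3.61% of the lower and 0.508% of the higher ones. Among genes called lower outside the proliferation, histone and cholesterol lists these shares were 12.3% for the CHR and 2.10% for E2F. The E-box CACGTG, which is the core of the element bound by TFEB and its relatives, was in 8.61% of all, 9.81% of the higher and 7.13% of the lower ones, and in 26.0% of 50 lysosomal promoters. The core of the interferon response element, GAAANNGAA, was in 5.64% of all and in 61.0% of 41 promoters of interferon-stimulated genes, and the AP-1 site TGANTCA was in 4.17% of all. These shares describe letters and not binding. Short stretches around the matches are printed for genes whose values are given here, 5′ to 3′ on the gene's strand, with the match of either strand in capitals.
MKI67, CHR at 2 places and 1 ISRE core, chr10:128126432-128126482, minus strand: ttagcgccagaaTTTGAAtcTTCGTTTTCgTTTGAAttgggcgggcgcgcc
ERCC6L, CHR, chrX:72239219-72239251, minus strand: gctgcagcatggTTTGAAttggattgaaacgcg
SAPCD2, CHR, chr9:137070558-137070582, minus strand: aggagggccccaTTCAAAagtagtc
TP73, E2F, chr1:3652269-3652301, plus strand: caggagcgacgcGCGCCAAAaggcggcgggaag
NEU1, E-box, chr6:31862927-31862959, minus strand: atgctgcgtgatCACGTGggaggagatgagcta
ALDOC, E-box, chr17:28577115-28577145, minus strand: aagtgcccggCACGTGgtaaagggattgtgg
IFI44, ISRE core, chr1:78649760-78649788, plus strand: ggcacactgagtTTCAGTTTCctttctct
Both motifs stood before genes of either direction. Among the genes named by rule, the CHR was found before 8 that fell and 5 that rose, LIPG and TP53INP2 with them, and the E-box before 10 that rose and 6 that fell, ABCA1, CDK4 and ACTG1 with them.

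Chromatin and nuclear envelope genes fell broadly. Of 61 such genes, 19 were called lower and 1 higher, with a median of -0.40, and 37 fell at the adjusted p alone. EZH2, the methyltransferase of Polycomb (chromosome 7, 148504349 to 148581413), went from 77.5, 79.0 and 98.8 CPM in DMSO to 4.58, 4.75 and 4.43 in PD30 (-4.21, SE 0.129, adjusted p = 1.14e-08). Its partners SUZ12 and EED were lower as well, EED by 1.86. SUV39H1, which methylates histone H3 at heterochromatin, fell by 3.27 and DNMT3B, a DNA methyltransferase, by 1.61. TMPO, which encodes the lamina proteins LAP2, went from 294, 310 and 347 CPM to 26.7, 27.9 and 19.3 (-3.68, SE 0.147, adjusted p = 6.19e-08), and LBR, the lamin B receptor, fell by 1.73. The nucleosome binders HMGN2 and HMGB1 fell by 2.75 and 1.98, HMGN2 from 632, 620 and 653 CPM to 99.8, 101 and 81.3. The member called higher was SYNE1, a nesprin of the outer nuclear membrane (1.07), whereas its relative SYNE2 fell by 2.14. LMNA, lamin A, was at -0.37 (adjusted p = 0.0737). Many of these genes are themselves known to peak in S phase, so the list is not independent of the proliferation lists.

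Among the signalling lists, Wnt and Notch genes moved mostly down. Of 40 components and targets of the Wnt and Notch pathways, 16 were called lower and 0 higher, with a median of -0.61, against 9.48% lower among the genes tested. Among the 14 members above the median level of all genes, 1 was called lower and the median was -0.15. TCF7, a nuclear effector of Wnt, went from 27.6, 26.0 and 22.7 CPM to 5.81, 6.90 and 4.96 (-2.11, SE 0.149, adjusted p = 3.63e-06), and LEF1, of the same family, fell by 1.51. AXIN2, a feedback target, fell by 1.19. On the Notch side, the ligands JAG1 and JAG2 fell by 1.27 and 1.5, NOTCH1 by 1.26, and the targets HES1 and HEYL by 1.46 and 1.87, HEYL from 29.1, 29.4 and 19.9 CPM to 5.71, 8.86 and 6.76. These falls add to that of NEURL1B. WNT5B (0.64), DKK3 (0.51) and NOTCH2 (0.34) rose by less. Of 46 receptor tyrosine kinases and ligands, 3 were called higher and 6 lower, where 5.76% and 9.48% of the genes tested were. ERBB3, a receptor of neuregulins, rose from 2.56, 3.13 and 3.84 CPM to 17.3, 14.3 and 13.8 (2.25, SE 0.176, adjusted p = 7.30e-06), and FGF1 rose by 1.24. The receptors PDGFRA, FGFR3 and EPHB3 fell by 1.93, 2.12 and 2.19. EGFR, at 98.5 to 120 CPM, was at 0.08 (adjusted p = 0.482). Of 38 immediate-early and ERK feedback genes 6 rose and 13 fell, with KLF2 (-1.95) and JUN (-0.99) among the falls and DUSP1 (0.68) and DUSP4 (0.59), phosphatases that dampen ERK signals, among the rises. Of 29 genes of the TGF-beta response 4 were called lower and 0 higher, GREM1 (-1.33) and ID1 (-1.28) with them.

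Interferon and inflammatory genes had no common rise. Of 52 interferon-stimulated genes, 1 was called higher and 11 lower (median -0.32), a count that was 7 after quantile normalization. Among the 23 members above the median level of all genes it was 3, with a median of -0.08. OAS3, a sensor of double-stranded RNA (chromosome 12, 113375856 to 113414265), went from 89.2, 93.5 and 99.0 CPM to 32.1, 29.3 and 31.9 (-1.59, SE 0.0848, adjusted p = 5.00e-07). IFI44 went from 14.4, 15.9 and 18.1 CPM to 4.78, 4.53 and 4.54 (-1.80, adjusted p = 4.77e-06). HERC5 and PLSCR1 fell by 1.53 and 1.24, and IRF1 by 1.02. STAT2, a subunit of the factor that drives these genes, was the one called higher, from 77.5, 81.3 and 91.2 CPM to 225, 184 and 188 (1.26, SE 0.103, adjusted p = 1.03e-05), whereas MX1 (-0.16, adjusted p = 0.192) did not pass. In the list of MHC class I and antigen processing, 5 of 22 genes rose and 5 fell, and 0 were called by edgeR or DESeq2 (13 had an unadjusted p under 0.05). HLA-E rose by 0.69 and NLRC5, a transactivator of class I genes, by 0.71, while HLA-B fell by 0.31 and B2M (-0.01, adjusted p = 0.933) did not pass. Of 25 genes of the NF-kB response, 5 were called lower and 0 higher. Among 30 cytokines and growth factors known from senescent cells, 3 were called in each direction, and the 3 lower became 1 without PD30 replicate 1. ICAM1, an adhesion receptor, rose from 169, 159 and 147 CPM to 435, 455 and 363 (1.40, SE 0.101, adjusted p = 4.40e-06), LIF by 1.21 and GDF15 by 1.24. IL6 rose by 0.97, from 6.31, 4.67 and 3.97 CPM to 12.6, 9.39 and 7.29 (highest adjusted p 0.0551 in the alternatives), IL8 (-0.49, adjusted p = 0.174) did not pass, and IL1B and CCL2, at 3.47 CPM or less, fell by 1.79 and 1.01.

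Stress and growth lists differed in how far they moved. Of 45 ATF4 targets and genes of amino acid supply, 19 rose and 4 fell, and 7 were called higher and 0 lower. NUPR1, a stress-induced chromatin protein, rose from 20.8, 30.0 and 21.3 CPM to 111, 138 and 128 (2.39, SE 0.153, adjusted p = 1.82e-06), PYCR1, of proline synthesis, by 1.25 and the amino acid carrier SLC38A1 by 1.16. PHGDH and MTHFD2, of serine and folate metabolism, fell by 0.79 and 0.90, and ASNS (-0.22, adjusted p = 0.173) and DDIT3 (0.24, adjusted p = 0.0803) did not pass. Genes of the unfolded protein response shifted slightly, 18 of 35 up and 3 down, with 0 called by edgeR or DESeq2 (24 at an unadjusted p under 0.05). HSPA5, its main chaperone, was at -0.09 (adjusted p = 0.322). Of 41 heat shock and DNAJ chaperones, 20 fell and 5 rose, including HSP90AA1 (-0.67), HSPA8 (-0.59) and the chaperonin subunit CCT5 (-0.74), and the largest fall was that of DNAJC9, a histone chaperone (-2.41). Of 76 ribosome biogenesis genes 26 fell and 5 rose, with UBTF, a factor of RNA polymerase I, from 162, 148 and 157 CPM to 73.0, 73.9 and 68.9 (-1.11, adjusted p = 2.87e-06). Ribosomal protein genes (3 of 76 up, 1 down) and oxidative phosphorylation genes (12 of 76 up, 0 down) had 0 called genes by either tool (9 and 16 at an unadjusted p under 0.05). In glycolysis, ALDOC rose by 2.91 while LDHA fell by 0.76. GAPDH was at -0.41 (adjusted p = 0.0103), but did not pass the adjusted p in at least 1 alternative, with values as small as -0.11 and adjusted p-values up to 0.504.

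Targets of p53 went both ways without Nutlin. Of 47 targets, 12 rose and 17 fell, and 3 and 7 were called. KITLG, the ligand of the receptor KIT, fell from 19.7, 19.3 and 22.4 CPM to 3.66, 2.68 and 2.16 (-2.86, SE 0.187, adjusted p = 2.11e-06). POLH, DDB2 and APAF1, which act in DNA damage and apoptosis, fell by 1.63, 1.38 and 1.35. TP53INP2, which also serves autophagy, rose by 1.40. BAX (-0.10, adjusted p = 0.302) and BBC3 (-0.21, adjusted p = 0.671) did not pass. Of 41 FOXO targets and quiescence genes 10 rose and 8 fell, PIK3IP1 (1.74) and PINK1 (1.06) up and BTG2 and CDKN2D (-1.02 each) down, and CDKN1B, which encodes the CDK inhibitor p27, fell by 0.71.

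In the extracellular matrix, single genes changed while the lists had medians near 0. Of 27 collagens none was called higher and 1 lower, COL15A1 (-1.04), and COL11A1 rose by 0.79, from 1102, 1201 and 845 CPM to 1912, 1924 and 1620. Of 56 other matrix proteins, 2 were called higher and 8 lower, the latter 4 without DMSO replicate 1. VCAN, the proteoglycan versican (chromosome 5, 82767437 to 82878122), fell from 153, 156 and 104 CPM to 24.5, 24.9 and 21.9 (-2.54, SE 0.154, adjusted p = 1.29e-06). MMP2, a gelatinase, rose from 300, 266 and 254 CPM to 654, 640 and 537 (1.16, SE 0.1, adjusted p = 1.48e-05). Of 30 integrins and laminins, ITGAX rose by 2.17 and ITGA8 fell by 1.59. Among 32 targets of YAP and SRF 14 rose and 6 fell. The contractile genes ACTA2, at 108, 95.4 and 36.5 CPM in DMSO and 375, 460 and 186 in PD30 (2.09, SE 0.410, adjusted p = 0.00243), and MYL9 (1.13) were called higher, while the cytoplasmic actins ACTG1 and ACTB fell by 0.97 and 0.59. Replicate 3 of either group was the lowest for ACTA2, and the gene overlaps FAS on the opposite strand. In the cilium list, 16 of 66 genes rose and 13 fell, BBS1 (1.29) and TMEM231 (1.05) up and GLI3, a factor of Hedgehog signalling, down by 2.03. Of the osteoblast markers, SPARC rose by 0.75 and CDH11 fell by 1.31, SPP1 rose by 1.15 (adjusted p = 0.0208, and 0.0781 at most without a library), RUNX2 was at -0.02 (adjusted p = 0.893) and COL1A1 at -0.14 (adjusted p = 0.654). ALPL, alkaline phosphatase, spread from 19.2 to 82.2 CPM among the DMSO libraries and did not pass (-1.21, adjusted p = 0.0848).

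Several smaller lists held single genes with large changes. In the hypoxia list 15 of 28 genes rose and 3 fell. EPAS1, which encodes the oxygen-regulated factor HIF-2 alpha, rose from 129, 116 and 92.8 CPM to 295, 259 and 229 (1.21, SE 0.133, adjusted p = 7.31e-05), and BHLHE40, a repressor that also acts in the clock, rose by 1.46. Among 20 clock genes ARNTL2 fell from 81.4, 79.9 and 106 CPM to 32.0, 30.1 and 39.0 (-1.40, SE 0.14, adjusted p = 3.83e-05). Of 27 complement and coagulation genes 2 were called higher, with PROS1, protein S of the anticoagulant system, at 1.14, and 5 lower, with the complement component C5 at -2.51. C5 overlaps CNTRL on the opposite strand, and as few as 2 genes of the list were called lower in some alternatives. Of 38 antioxidant targets of NRF2, CBR3, a carbonyl reductase, fell by 2.63 and ABCC3 rose by 1.41. SOX9, a factor of chondrocytes, fell from 74.7, 73.7 and 66.7 CPM to 26.9, 35.5 and 40.4 (-1.07, adjusted p = 0.000214). Other chondrocyte markers went the other way, SOX6 rising by 0.81 (adjusted p = 0.00211) and SOX5 by 0.62 (adjusted p = 0.00892). Of the 8 tested 2 rose and 3 fell. NCAM1, a neural adhesion molecule, fell from 83.4, 79.8 and 90.6 CPM to 39.8, 33.1 and 40 (-1.17, adjusted p = 1.47e-05). STMN2, another neural marker, rose by 0.94 (adjusted p = 0.00753). Of the 12 neural markers tested 1 rose and 3 fell, with a median of 0.01. In each of these the groups were apart, which the rule for naming genes from lists required.

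How far the changes depended on the drug still being there was tested between PD30 and PD24, in 1 fit with the DMSO libraries. Of 15395 genes 532 were called higher and 682 lower in PD30 than in PD24, 3.46% and 4.43% (7.89% in all, and 30.2% at the adjusted p alone). This comparison uses the same PD30 libraries as the one with DMSO, so the values of both are set side by side. MSMO1 stood at 22.3, 25.1 and 52.4 CPM in PD24, where it was 28.8, 34.8 and 39.0 in DMSO, and PD30 was above PD24 by 3.21 (adjusted p = 4.99e-05). STAT2 was at 67.0, 68.8 and 95.8 CPM in PD24, and PD30 was higher by 1.35 (adjusted p = 0.000111). For these genes the PD24 libraries lay in or about the DMSO range. FABP3 was at 6.15, 21.5 and 33.1 CPM in PD24, so that replicate 1 was closest to DMSO, and PD30 was not shown to differ (0.90, adjusted p = 0.116). MKI67, at 3.48 to 4.61 CPM, and NEURL1B, at 0.722 to 0.925 CPM, were low in PD24 too, and their differences did not pass (0.37, adjusted p = 0.118, and -0.21, adjusted p = 0.543). ABCA1 was at 167, 127 and 97.9 CPM in PD24, above DMSO, and lower in PD30 by 3.75 (adjusted p = 6.29e-06). By lists, 22 of the 24 cholesterol genes and 13 of the 30 fatty acid genes were higher in PD30 than in PD24 at an adjusted p under 0.05, and 62 of the 76 ribosome biogenesis genes, 17 of the 29 TGF-beta genes and 24 of the 41 chaperones were lower, where 14.3% and 15.9% of the genes tested were. Of the lysosomal genes 18 of 73 were higher and 1 lower.

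The same 30 h of PD0332991 were also given with Nutlin in the last 6 h, and these libraries share none with PD30 or DMSO. In N+PD30 against Nutlin, 1326 genes were called higher and 2184 lower of 15721, or 8.43% and 13.9% (22.3% in all). The adjusted p alone passed 49.0%, 24.3% up and 24.7% down. Of the genes called higher in PD30, 855 could be tested there, 411 were called higher (47.2% of 871) and 35 lower. Those 411 are 31.0% of the genes called higher with Nutlin. Of those called lower in PD30, 1365 could be tested, 963 were called lower (67.2% of 1434, and 44.1% of the genes called lower with Nutlin) and 4 higher. The median log2 fold change of the genes called higher was 1.33 without and 0.99 with Nutlin, and of those called lower -1.63 and -1.47. The genes were chosen for their size in the first comparison, so the second value of each pair is the one not used to choose them. The list medians with Nutlin were -4.13 for G2/M genes, 1.83 for cholesterol, 0.77 for fatty acid synthesis, 0.55 for lysosomes, with 50 of 73 genes up and 3 down, -0.25 for chromatin writers and -0.41 for Wnt and Notch genes. FABP3 rose by 4.46, PRUNE2 by 3.22, ACSS2 by 2.59 and SLC17A5 by 2.30 with Nutlin, and ABCA1, LPL and EZH2 fell by 1.87, 3.36 and 3.51. Of the 41 chaperones 29 were lower with Nutlin. The ribosome biogenesis list, at -0.14 without Nutlin, was at 0.04 with it, with 20 genes up and 15 down. For the interferon list the counts were 10 up and 14 down of 51 at the adjusted p. The difference between both effects was tested as an interaction in 1 fit of the 12 libraries. Of 16113 genes 1647 passed both limits (10.2%), 851 with a more positive effect when Nutlin was present (5.28%) and 796 with a more negative one (4.94%). At the adjusted p alone these were 19.8%, 12.8% and 7.03%. Among the genes called higher in PD30, the effect was more negative with Nutlin in 164 and more positive in 10, and among those called lower it was more positive in 206 and more negative in 12. The genes were chosen on the same 6 libraries without Nutlin that enter the interaction, which favours a smaller effect with Nutlin, so these counts are a description.

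**Figure D5:**
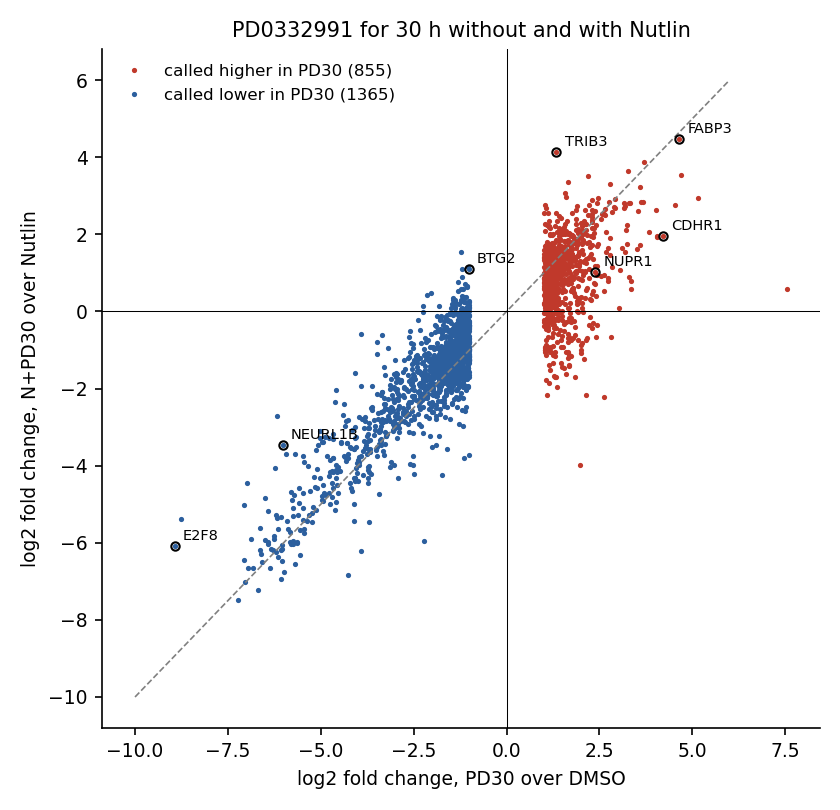
Log2 fold change of N+PD30 over Nutlin (vertical axis) against that of PD30 over DMSO (horizontal axis) for the 855 genes called higher (red) and 1365 called lower (blue) in PD30 that could be tested in both, with the line of equal change dashed. Most blue points lie below 0 on both axes (1315 of 1365), and 715 of the 855 red points lie above 0, with TRIB3 above the line and CDHR1 and NUPR1 below it.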

How the data were processed

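The RNA of 18 SJSA-1 samples in 6 groups of 3 was sequenced by the authors as single reads. The deposited values are whole-number counts of reads per gene, which the authors made by aligning with TopHat and Bowtie 2 to the human genome build hg19 and counting over exons with HTSeq 0.6.0 in union mode with the reverse strand setting. In union mode a read in exons of several genes is dropped. The deposited normalized tables and the authors' comparison columns (mean levels, fold changes and p-values) were not used, nor were the N+PD24 samples.

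From the counts, genes were filtered with filterByExpr, scaled by TMM and tested with the quasi-likelihood test of edgeR 4.0.16 in R 4.3.3, with Benjamini-Hochberg adjustment over the genes tested, 15125 in PD30 against DMSO. A gene was called at an adjusted p under 0.05 and a log2 fold change over 1 in size. The 3 DMSO columns are repeated with identical counts in 2 tables and were used once. PD24 with PD30 and DMSO, Nutlin with N+PD30, and the interaction of both treatments were fitted separately. Library totals ran from 12.7 M to 40.2 M over the 15 libraries used (M stands for 1e6), with the lowest in N+PD30. The biological coefficient of variation in DMSO and PD30 was 0.121. DESeq2 1.42.0, limma 3.58.1 (quantile normalization), other scalings, no filter, glmTreat with a fold of 1.5, a replicate block and leaving out each library were the alternatives, and the tests were checked on simulated data.

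The comparison, the gene lists (from general knowledge) and the tests were chosen with earlier results of these data known. Genes were named by rule. Among those past both limits, with groups apart and 5 CPM or more in the higher group, they are the 12 largest rises, the 12 largest falls outside the S phase, G2/M, histone and cholesterol lists and the 3 largest in each of those lists. In every other list they are the 2 largest rises and falls at an adjusted p under 0.05, with groups apart and the same level but without the fold limit, and in addition CDK4, CDK6, CCND1, CCND2, CCND3, RB1, CDKN1A, MDM2 and RPLP0. Further genes were named after their values were seen. Of the 23368 gene rows, 28 bear names that a spreadsheet turned into dates, and 21463 (91.8%) were placed on GRCh37 by GENCODE annotation. Promoter stretches are from RefSeq, GRCh38.p14. Some genes that this rule names are not reported here.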

Additional observations from a re-analysis of the deposited data

Results flagged for a closer look

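For 26 of the 183 genes named by rule, the effect of PD0332991 differed between cells without Nutlin (PD30 minus DMSO) and with it (N+PD30 minus Nutlin) by more than 1 on the log2 scale, at an adjusted p under 0.05 in edgeR's test of the interaction, with adjusted p-values from 8.79e-05 (BTG2) to 0.0348 (GDF15). The interaction as a whole passed both limits in 10.2% of the genes tested. Most of the 183 were chosen for their change in PD30 against DMSO, which enters the interaction, so the number of genes is a description. In 8 of the 26 the effect was more negative with Nutlin. A rise without Nutlin was smaller or not seen with it, by these log2 differences: CDHR1 -2.21, B3GALT2 -1.93, CPNE7 -1.84, VWF -1.65, LOC283050 -1.58, ITGAX -1.51, NUPR1 -1.34 and GDF15 -1.28. CDHR1 rose by 4.17 without and by 1.96 with Nutlin in this fit, and GDF15, a p53 target, was at 1.21 and -0.06.

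In the other genes the effect was more positive with Nutlin. TRIB3, a pseudokinase of the ATF4 response, rose by 1.32 without and by 4.14 with Nutlin, a difference of 2.83. BTG2, a p53 target that slows division, was at -1.06 and 1.10, a difference of 2.16. E2F5 (0.60 and 2.44) and BHLHE40 (1.43 and 2.44) differed by 1.84 and 1.01. Falls were smaller with Nutlin for the S phase genes FAM111B, CCNE2 and MCM10, with differences of 3.40, 2.57 and 2.06. The same held for NEURL1B (2.59), RHBDL3 (1.68), WDR76 (1.6), CBR3 (1.49), SAPCD2 (1.40), DNAJC9 (1.32), CD83 (1.23), KITLG (1.14) and POLH (1.02). Some of these were near the floor in PD30, CCNE2 at 0.718 CPM or less. The size of such a fall depends on the level it starts from, and the levels with Nutlin are not given here. JUN (-1.02 and 0.18) and CDKN2D (-1.05 and 0.25) differed by 1.20 and 1.30. The cause of these differences was not tested.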

How the results depend on the processing

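The counts of called genes in PD30 against DMSO kept within 1.5 times the 2305 (871 higher, 1434 lower) in each of the alternatives except for 2. With the adjusted p alone they were 7307 (3468 higher, 3839 lower), which has no fold limit, and among the 7562 genes above the median level they were 758 (233 and 525), which tests fewer genes. DESeq2 gave 2237 (848 and 1389). After quantile normalization, which moved the median of all genes by 0.093, the split was 1058 higher and 1235 lower, and leaving out 1 library gave 2291 to 2400. The replicate block gave 2326, and 1252 against PD24, 3512 with Nutlin and 1800 for the interaction. It changed none of these counts by over 1.5 times. Same-numbered DMSO and PD30 libraries correlated in their deviations at -0.092, 0.292 and 0.268, and the other pairs at -0.445 to 0.266. Whether libraries of the same number share a batch was not tested, and these values do not settle it. RPLP0 (0.05, not past the adjusted p) changed sign after quantile normalization (-0.071), without DMSO replicate 3 (-0.006) and without PD30 replicate 2 (-0.040), its lowest and highest values without 1 library being -0.040 and 0.163. Of the 183 named genes 14 lost the adjusted p in at least 1 alternative, CDK4, SPP1, ACTG1 and ADM among them, and so did ATF4, GAPDH, HLA-B, IL6, NOTCH2 and TFE3, which are named outside that rule. Calls in lists moved by over 1.5 times for lysosomes (24 higher with glmTreat, 11 otherwise), p53 targets (11 lower with glmTreat), other matrix proteins (4 lower after quantile normalization and without DMSO replicate 1) and the cilium list (2 lower after quantile normalization). Depth limits the lowest genes, whose median SE was 0.28.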

Other observations

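Gene families defined by symbol, taken where at least 20 members were tested and chosen after the data were examined, add groups that the lists above do not hold. All 20 nucleoporin genes tested (symbols starting with NUP) fell, and 14 of them were called, at a median of -1.22 (log2). Centrosomal CEP genes had 23 of 29 falling, 1 rising and 11 called lower (median -0.75), and RAD genes of DNA repair had 13 of 20 falling and 10 called lower (median -0.93). These families overlap with the proliferation genes by function. Of 53 small nucleolar RNA entries (SNORD) 14 fell and 0 rose, and 11 were called lower (median -0.50). Kinesins went both ways, with 10 of 34 rising and 19 falling, 2 called higher and 14 lower.

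Other families had more members rising than falling. Solute carriers (SLC) had 96 of 259 rising and 38 falling, with 31 called higher and 11 lower (median 0.29), and TMEM genes had 83 of 188 rising and 30 falling (median 0.27). Of 28 genes with symbols starting with SEC, many of them of the secretory pathway, 16 rose and 2 fell, and of 27 TBC genes, regulators of Rab proteins, 13 rose and 2 fell (medians 0.28 and 0.31). The small GTPases RAB had 17 of 61 rising and 9 falling and ARL 5 of 24 in each direction. Of 471 zinc finger genes (ZNF) 48 rose and 123 fell, with 7 called higher and 43 lower (median -0.10). Against these, 22.9% of all genes tested rose and 25.4% fell.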
